A study of Mus musculus with 6 samples.

Results

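Genes of fat synthesis, storage and lipolysis were followed in the aortic arch of mice carrying Mir21-deficient or wild-type bone marrow. The set held 35 genes, chosen by name from the pathway with earlier results of these data known. Every probe of the array that carries one of these names was taken. This gave 56 of the 55681 probes, of which 55 were bright enough to be tested and 1, the second probe of Lpin1, was not. All 35 genes had at least 1 tested probe.

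The 6 arrays came from female C57BL/6 Mir21+/+ mice that all received whole-body X-rays as 2 doses of 5 Gy within 4 hours and a marrow transplant the next day. In the 3 knockout-marrow mice (KO-1, KO-2, KO-3) the donor marrow was Mir21-/-, and in the 3 wild-type-marrow mice (WT-1, WT-2, WT-3) it was Mir21+/+. The mice were put on a high-fat diet 3 weeks after the X-rays and kept on it for 12 weeks, after which RNA of the arch was measured on 1-colour arrays, 1 array per mouse. By design the deletion is carried by cells descended from the graft, while recipient cells of the vessel wall and the surrounding fat are Mir21+/+. The share of recipient blood cells replaced by donor cells, the age of the mice and the hour of tissue collection are not given in the sources used here.

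White and brown adipocytes build fatty acids from citrate through Acly, the acetyl-CoA carboxylases and Fasn, lengthen and desaturate them, and join them to a glycerol backbone as triglyceride in a droplet coated by perilipins. Lipolysis runs the other way, from the beta-3 adrenergic receptor through Pnpla2, Lipe and Mgll to free fatty acids and glycerol. The thoracic aorta is surrounded by perivascular fat, much of it brown in mice, and a dissected arch can carry varying amounts of it.

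Levels are given as log2 signal relative to the 75th percentile of the same array, so a level of 0 is a signal at that percentile. A difference is knockout-marrow minus wild-type-marrow, its error is the SE of the fit, and adjusted p-values are limma's, adjusted by Benjamini and Hochberg's method across the 38339 probes tested. For a gene with several probes the brightest tested probe stands for it unless another is named. Levels of different genes are not compared, since each probe has its own brightness.

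Some quality values touch everything that follows. The share of spots well above background ran from 66.4% to 74.4% over the 6 arrays, and the 75th percentile of signal from 239 to 407, both lowest on KO-3. The next lowest shares were 70.3% on KO-2 and 71.2% on WT-2, while the next lowest 75th percentile was 329 on KO-1. KO-3, KO-2 and WT-2 also had the lowest medians of the 35 genes, and a link with the share of spots was not tested. All arrays shared 1 slide and 1 scan. Knockout arrays lay in its row 2, columns 1, 2 and 4. Wild-type arrays lay in its row 1, columns 1, 2 and 3, so effects of slide row and marrow genotype cannot be told apart. The array carried 0 probes named Mir21 or Mir21a, so the deletion could not be checked. All 8 smooth muscle markers and all 10 white adipocyte markers looked up were well above background on all 6 arrays, so RNA of the vessel wall and of fat was present on every array.

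Across the 35 genes the knockout arches read lower, and the reading rested on 2 of the 3 mice. The median difference was -1.44, against 0.02 over all tested probes, and the 35 differences ran from -2.62 to -0.17. All 35 lay below 0, where 46.8% of all tested probes did. None of the 35 passed the adjusted test, with adjusted p from 0.445 to 0.804 (limma), while 0.00261% of all tested probes passed it on the lower side. At an unadjusted p under 0.05, 11 of the 35 were lower and 0 higher, beside 4.27% of all tested probes lower.

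The 3 knockout mice did not behave alike. KO-3 lay below all 3 wild-type arrays for 35 of the 35 genes, beside 28.9% of all tested probes. KO-2 did so for 33 of the 35, all but Scd2 and Lpl, beside 32.8% of all tested probes. KO-1 did so for 1 gene, Mogat1, beside 28.1% of all tested probes, and for 8 genes it lay above all 3 wild-type arrays, beside 32.7% of all tested probes. Relative to the wild-type mean, the median over the 35 genes was 0.17 on KO-1, -2.05 on KO-2 and -2.82 on KO-3. The spread within the knockout group was therefore wide, with a median SD of 1.57 in the knockout group and 0.56 in the wild-type group. The knockout SD was the larger for 32 of the 35 genes, all but Me1, Scd2 and Plin4, beside 68.5% of all tested probes. Wild-type arrays were not uniform either, and WT-2 was the lowest of them for 31 of the 35 genes, beside 32.3% of all tested probes.

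**Figure D1:**
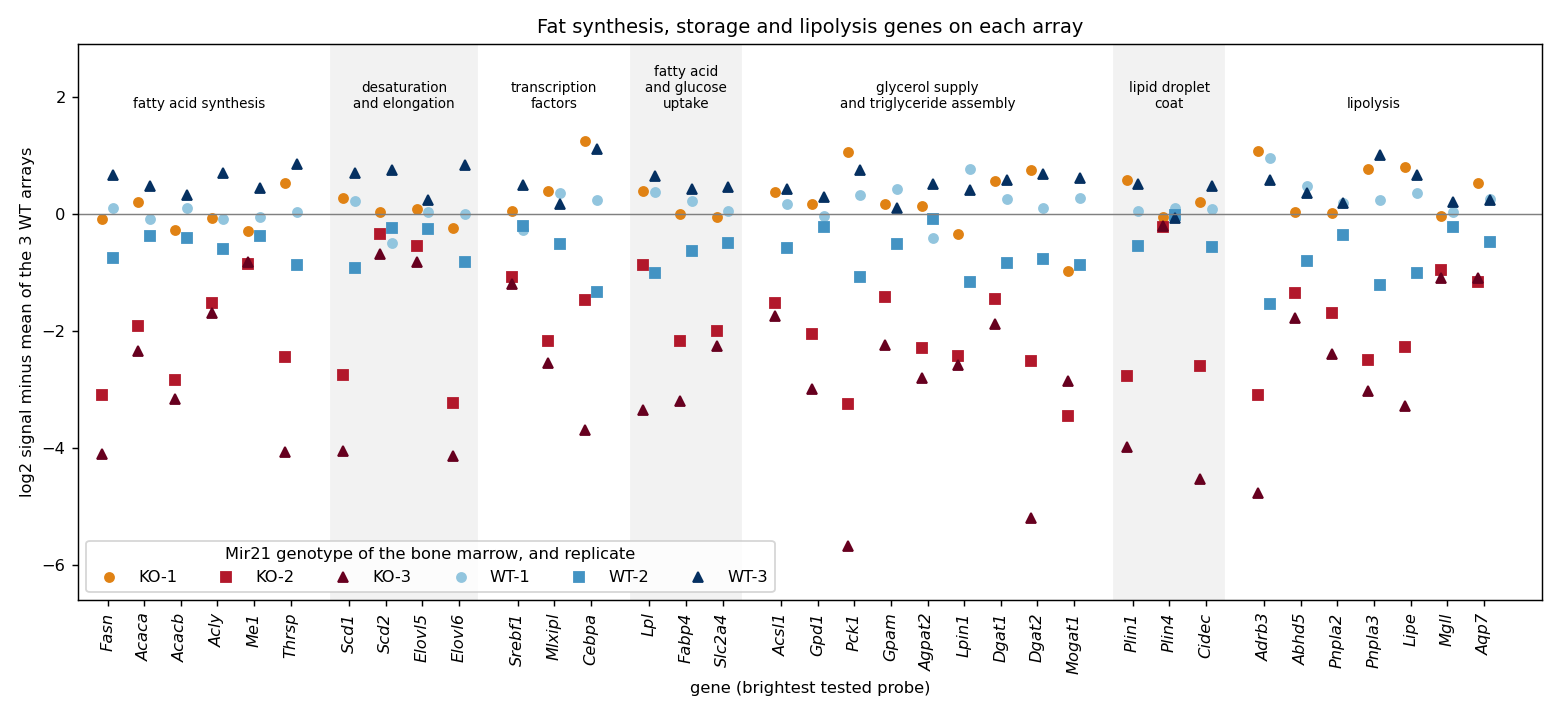
Each column is a gene at its brightest tested probe, grouped by role, and the vertical axis is the log2 signal minus the mean of the 3 wild-type arrays. Knockout-marrow arrays are drawn left (orange circle KO-1, red square KO-2, dark triangle KO-3) and wild-type-marrow arrays right in blues; KO-1 sits among the wild-type arrays, with a median of 0.17, while KO-2 and KO-3 have medians of -2.05 and -2.82.

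All 3 knockout arrays lay below all 3 wild-type arrays for 1 of the 35 genes at the brightest probe and at 4 of the 55 tested probes, beside 6.14% of all tested probes. The members' count of such separated groups was thus near the background. The 4 probes belonged to Mogat1, Me1, Pnpla3 and Mgll, and they are described with their roles below. The Mogat1 probe was bright enough to be tested only through the wild-type group, being well above background on 1 of the 3 knockout arrays.

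Proximal promoters of the 35 genes are described here as background. The shared sign of the 35 differences rested on the same 2 arrays, KO-2 and KO-3, and its cause was not tested. A window was found for 26 of the 35 genes, 36 windows in all, in RefSeq's GRCm38.p6 table. Each window runs from 250 bases before a gene's start to 50 bases after it. The CCAAT box (letters CCAAT on either strand), to which the factor NF-Y binds beside SREBP sites, occurred in 14 of the 36 windows or 38.9%, beside 37.4% of all 32851 windows. The E-box CACGTG, on either strand, occurred in 4 windows or 11.1%, beside 7.15% of all. A sterol regulatory element core, TCACNCCAC on either strand, occurred in 2 windows or 5.56%, those of Mlxipl and Acsl1, beside 1.24% of all. These are matches of letters in short windows and say nothing of binding.

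The 250 bases before the start are shown for the lipogenic genes Fasn and Thrsp, with differences of -2.43 and -2.00, and for Plin4, the gene with the smallest difference, with CCAAT or its reverse complement ATTGG in capitals. The Fasn window lies at chr11:120824548-120824797, the Thrsp window at chr7:97417551-97417800 and the Plin4 window at chr17:56109783-56110032 of GRCm38.p6, all on the minus strand and written 5′ to 3′.
Fasn: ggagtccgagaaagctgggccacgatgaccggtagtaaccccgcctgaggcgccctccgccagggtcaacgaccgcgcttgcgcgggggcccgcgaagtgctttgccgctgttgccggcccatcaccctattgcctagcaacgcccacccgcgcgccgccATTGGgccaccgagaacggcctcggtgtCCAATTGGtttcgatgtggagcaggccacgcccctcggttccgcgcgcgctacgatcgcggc
Thrsp: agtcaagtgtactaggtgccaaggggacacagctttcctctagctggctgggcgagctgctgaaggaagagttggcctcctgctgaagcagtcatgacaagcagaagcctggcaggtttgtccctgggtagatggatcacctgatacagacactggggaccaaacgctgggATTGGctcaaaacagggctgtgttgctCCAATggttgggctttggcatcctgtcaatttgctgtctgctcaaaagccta
Plin4: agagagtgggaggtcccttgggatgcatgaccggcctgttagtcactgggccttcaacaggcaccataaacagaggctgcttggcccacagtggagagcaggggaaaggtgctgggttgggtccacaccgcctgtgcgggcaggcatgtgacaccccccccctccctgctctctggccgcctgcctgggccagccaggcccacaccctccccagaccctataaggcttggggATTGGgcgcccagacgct
The Fasn window held 3 matches, of which 2 overlap on opposite strands, the Thrsp window 2 and the Plin4 window 1. All 3 genes are among the 13 that carry the box. They therefore cannot show whether the box goes with the size of a difference, which was not tested.

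Fatty acid synthesis genes had a median difference of -1.68 over 6 genes, and each of the 6 was below all wild-type arrays on both KO-2 and KO-3. The shares of all tested probes were 32.8% on KO-2 and 28.9% on KO-3, and the share on both at once was not computed. Fasn, the fatty acid synthase that assembles palmitate, read 4.03, 1.03 and 0.02 on KO-1, KO-2 and KO-3, against 4.22, 3.36 and 4.79 on WT-1, WT-2 and WT-3. KO-1 lay within the wild-type range and the other two below it. The Fasn difference was -2.43 ± 0.94, a level 5.40-fold lower in the knockout group, with a 95% interval from -4.64 to -0.23 (adjusted p = 0.55, limma). Acacb, the acetyl-CoA carboxylase at the mitochondrial surface whose product restrains fatty acid oxidation, read 5.19, 2.63 and 2.30 on the knockout arrays, against 5.57, 5.04 and 5.78 on the wild-type arrays. Here too the groups overlapped only through KO-1. Its difference of -2.09 ± 0.70 had an interval from -3.73 to -0.45 (adjusted p = 0.51, limma). The cytosolic carboxylase Acaca, which makes malonyl-CoA for synthesis, differed by -1.35 ± 0.62. Thrsp, the Spot 14 protein that favours lipogenesis, differed by -2.00 ± 1.06, and Acly, which splits citrate into acetyl-CoA, by -1.10 ± 0.49.

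Me1, the cytosolic malic enzyme that supplies NADPH for fatty acid synthesis, varied less within the knockout group than most of the 35. Its brightest probe read 4.87, 4.29 and 4.34 on the knockout arrays and 5.11, 4.77 and 5.60 on the wild-type arrays. A dimmer probe read 2.91, 2.71 and 2.75 on the knockout arrays, against 3.54, 3.32 and 4.09 on the wild-type arrays, so that at this probe the groups did not overlap and KO-1 went with KO-2 and KO-3. The 3 probes gave differences of -0.66 ± 0.26, -0.64 ± 0.28 and -0.86 ± 0.22, and the last had the smallest adjusted p of all member probes (adjusted p = 0.441, limma). Its knockout SD of 0.11 was below its wild-type SD of 0.40. These probes lie on chromosome 9 of mm9, the brightest at 86475077 to 86475136 and the dimmer one at 86480571 to 86480630.

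Desaturation and elongation genes had differences from -2.54 to -0.34. Scd1, the stearoyl-CoA desaturase of adipocytes and liver, read 7.51, 4.48 and 3.18 on the knockout arrays, against 7.46, 6.31 and 7.93 on the wild-type arrays, a difference of -2.18 ± 1.01. Scd2, another stearoyl-CoA desaturase, read 4.37, 3.99 and 3.65 on the knockout arrays and 3.84, 4.09 and 5.08 on the wild-type arrays. Its difference was -0.34 ± 0.35, with a 95% interval from -1.14 to 0.47, and KO-2 lay inside the wild-type range. Elovl6, which elongates saturated and monounsaturated fatty acids made by Fasn, read 3.85, 0.86 and -0.04 on the knockout arrays, against 4.10, 3.27 and 4.93 on the wild-type arrays. The Elovl6 difference of -2.54 ± 0.94 had an interval from -4.74 to -0.35 (adjusted p = 0.54, limma). Elovl5, which elongates polyunsaturated fatty acids, differed by -0.43 ± 0.26, with an interval from -1.04 to 0.18. The differences between paralogs were not tested.

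Among the transcription factors, Srebf1, whose SREBP-1c form drives the lipogenic enzymes in response to insulin, read 0.64, -0.48 and -0.61 on the knockout arrays, against 0.32, 0.39 and 1.08 on the wild-type arrays. The Srebf1 difference was -0.75 ± 0.37 (adjusted p = 0.616, limma). Cebpa, a factor of adipocyte differentiation, read 3.13, 0.41 and -1.81 on the knockout arrays and 2.13, 0.55 and 2.99 on the wild-type arrays, with KO-1 the highest of all 6. Its difference was -1.31 ± 1.18. For Cebpa the knockout group thus held the highest array as well as the lowest.

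Mlxipl, the glucose-responsive factor ChREBP, gave different answers at its 2 probes. The brighter one, at 135613705 to 135613764 on chromosome 5 of mm9, read 3.92, 1.36 and 0.99 on the knockout arrays, against 3.88, 3.02 and 3.70 on the wild-type arrays, a difference of -1.44 ± 0.71. The second, at 135614195 to 135614252, read 2.77, 2.36 and 2.55 on the knockout arrays and 2.27, 2.64 and 2.59 on the wild-type arrays, a difference of 0.06 ± 0.18. It was the only 1 of the 55 tested probes with a difference above 0. Both probes carry the same transcript accession. The second probe holds a stretch of 15 bases that also occurs, on either strand, in 5 other probes of the array, the most of all 56 probes in the set, for which the median was 0. Bases 28 to 57 of that probe are shown with the repeated stretch in capitals. Whether this bears on the result was not tested.
Mlxipl second probe: gtgatgcaCACCTTTAATCCCAGtacttgg

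Uptake genes were lower on KO-2 and KO-3 with 1 exception. Fabp4, the fatty acid carrier of adipocytes and also of macrophages, read 8.33, 6.16 and 5.14 on the knockout arrays, against 8.55, 7.70 and 8.75 on the wild-type arrays. KO-1 lay inside the wild-type range, and the difference was -1.79 ± 0.74 (adjusted p = 0.57, limma). Slc2a4, the insulin-regulated glucose transporter GLUT4, read 5.01, 3.06 and 2.81 on the knockout arrays and 5.12, 4.58 and 5.52 on the wild-type arrays. The Slc2a4 difference was -1.44 ± 0.56, from 10 spots averaged per array. Lpl, the lipoprotein lipase that frees fatty acids from circulating triglyceride, read 5.60, 4.34 and 1.87 on the knockout arrays, against 5.58, 4.21 and 5.86 on the wild-type arrays. Here KO-2 was above WT-2 and KO-3 alone lay below the wild-type range, with a difference of -1.28 ± 0.90.

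Glycerol supply and triglyceride assembly, the largest role group, had a median difference of -1.66 over 9 genes. Pck1, which makes glycerol phosphate for triglyceride in adipocytes through glyceroneogenesis, had the largest difference of the 35 at -2.62 ± 1.50, and also the widest spread. It read 6.34, 2.03 and -0.40 on the knockout arrays, against 5.60, 4.20 and 6.03 on the wild-type arrays. KO-1 was the highest of all 6 and KO-3 the lowest, and the interval ran from -6.14 to 0.89 (adjusted p = 0.656, limma).

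Mogat1, a monoacylglycerol acyltransferase, was the one gene whose brightest probe separated the groups. It read -2.96, -5.44 and -4.84 on the knockout arrays, against -1.71, -2.85 and -1.38 on the wild-type arrays. KO-1 lay just below WT-2. The difference of -2.43 ± 0.65 had an interval from -3.96 to -0.91 (adjusted p = 0.445, limma). This was a dim probe, well above background on all 3 wild-type arrays and on 1 of the 3 knockout arrays, KO-1, and its values on KO-2 and KO-3 lay below the dimmest signal called well above background on those arrays (-4.94 and -4.51). The size of the difference is therefore poorly measured, and with normexp background correction it was -0.78. Its position is 78534677 to 78534736 on chromosome 1 of mm9.

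The other genes of this group followed KO-2 and KO-3 to different degrees. Dgat2, the acyltransferase that completes triglyceride from newly made fatty acids, differed by -2.32 ± 1.30, while Dgat1, its partner for re-esterification, differed by -0.92 ± 0.65. The phosphatidate phosphatase Lpin1 differed by -1.79 ± 0.70 and the acyltransferase Agpat2, which is mutated in a human lipodystrophy, by -1.66 ± 0.71. Gpd1, which reduces dihydroxyacetone phosphate to the glycerol backbone, differed by -1.63 ± 0.71, with the wild-type arrays close together (SD 0.26, n = 3) and the knockout arrays far apart (SD 1.63, n = 3). Gpam, which adds the first acyl chain, differed by -1.17 ± 0.57, and Acsl1, which activates fatty acids, by -0.97 ± 0.56.

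Coat proteins of the lipid droplet ranged from some of the widest differences to the narrowest. Cidec, which fuses droplets into large ones, read 5.42, 2.61 and 0.69 on the knockout arrays, against 5.30, 4.65 and 5.70 on the wild-type arrays, a difference of -2.31 ± 1.04. Plin1, the perilipin that guards the adipocyte droplet from lipases, read 4.54, 1.19 and -0.02 on the knockout arrays and 4.02, 3.41 and 4.46 on the wild-type arrays, a difference of -2.06 ± 1.03. Plin4, a perilipin of nascent droplets, read 6.22, 6.05 and 6.08 on the knockout arrays, against 6.38, 6.26 and 6.20 on the wild-type arrays. Its difference of -0.17 ± 0.15 was the smallest of the 35, with an interval from -0.52 to 0.18, and its probe covers bases 56240055 to 56240114 of chromosome 17 in mm9. Plin4 thus varied little between mice at this probe while Plin1 and Cidec varied widely.

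Lipolysis genes had a median difference of -1.37 over 7 genes. Adrb3, the beta-3 adrenergic receptor of fat cells, read 4.20, 0.04 and -1.64 on the knockout arrays, against 4.09, 1.60 and 3.71 on the wild-type arrays. WT-2 was well below the other wild-type arrays here, and the difference was -2.27 ± 1.40, with -0.90 ± 0.94 at a dimmer probe. Pnpla2, the triglyceride lipase ATGL that begins lipolysis, read 6.71, 5.01 and 4.31 on the knockout arrays, against 6.89, 6.35 and 6.88 on the wild-type arrays. The Pnpla2 difference was -1.37 ± 0.56, with an interval from -2.66 to -0.07 (adjusted p = 0.564, limma). Its coactivator Abhd5 differed by -1.04 ± 0.52, the hormone-sensitive lipase Lipe by -1.59 ± 0.99, and the glycerol channel Aqp7 by -0.58 ± 0.46.

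Pnpla3, a lipase relative that is induced by feeding, had 2 probes, neither of which passed the test. The brighter probe read 0.93, -2.34 and -2.87 on the knockout arrays, against 0.39, -1.06 and 1.17 on the wild-type arrays, a difference of -1.59 ± 1.0. At the dimmer one, on chromosome 15 of mm9 at 84019823 to 84019882, the values were -1.06, -3.39 and -3.24 on the knockout arrays and -0.33, -0.81 and 0.28 on the wild-type arrays. There the groups did not overlap, and the difference was -2.28 ± 0.61 (adjusted p = 0.445, limma).

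Mgll, the monoacylglycerol lipase that finishes lipolysis, was read by 4 probes under 2 transcript accessions. The 2 probes under the first accession, at 88778292 to 88778351 and 88775976 to 88776035 on chromosome 6 of mm9, gave -0.70 ± 0.29 and -0.59 ± 0.21. At the second of these the knockout arrays read 4.02, 3.34 and 3.52 and the wild-type arrays 4.14, 4.23 and 4.27, so that the groups did not overlap, although KO-1 lay close to WT-1. The 2 probes under the other accession, at 88714636 to 88714695 and 88716266 to 88716325, gave -0.18 ± 0.28 and -0.003 ± 0.38. The last was a dim probe, which read -4.52, -3.67 and -2.98 on the knockout arrays and -3.55, -3.53 and -4.07 on the wild-type arrays. The difference between the pairs of probes was not tested.

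**Figure D2:**
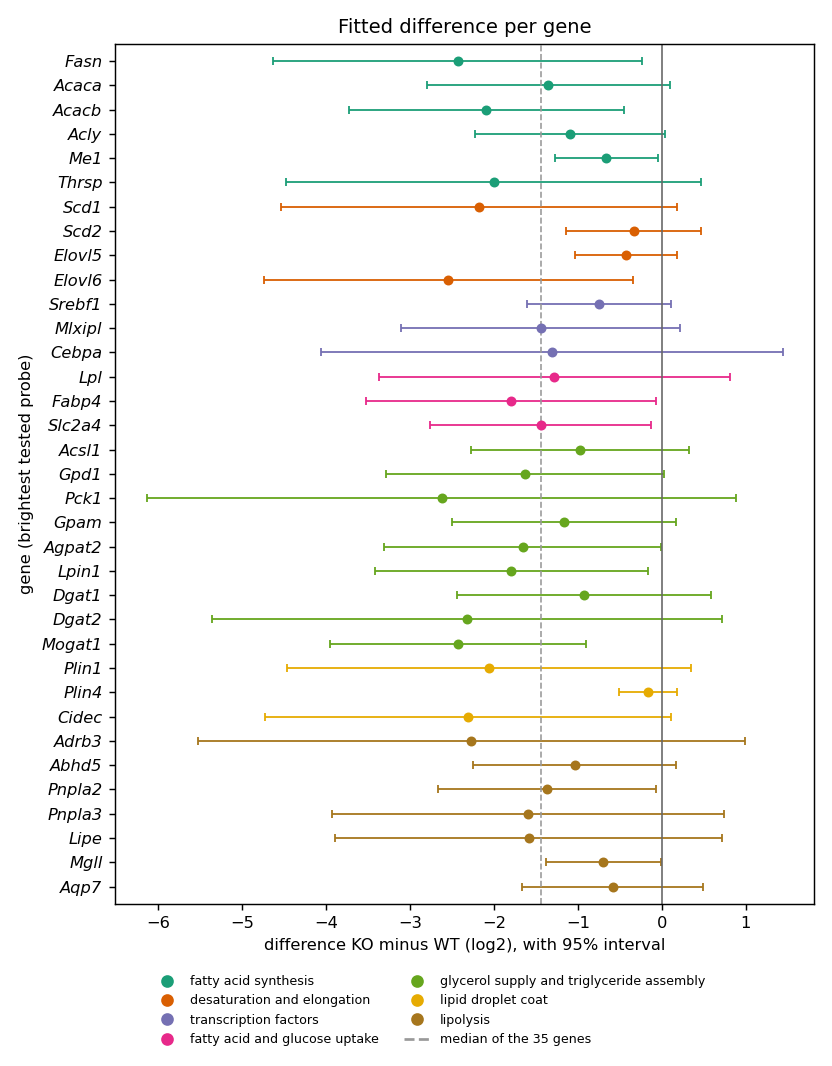
Points are the fitted knockout minus wild-type difference (log2) of each gene at its brightest tested probe, bars its 95% interval, and colours the role. All 35 points lie left of 0, between -2.62 and -0.17, most intervals are wide, and the dashed line is the median of -1.44.

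There were 14 genes with several tested probes, and the lowest and highest difference of a gene lay over 1 apart for 2 of them, Mlxipl and Adrb3. The next widest spans were 0.70 for Mgll, 0.69 for Pnpla3 and 0.63 for Acaca. The 2 probes of Lpl differed by 0.04 and the 2 of Acsl1 by 0.05. For Acaca the 2 brightest probes are close to the same oligo, with a shared stretch of 55 bases, and gave -1.35 ± 0.62 and -1.38 ± 0.62. They are not separate evidence. The files place one on chromosome 11 and the other on chromosome 12 of mm9. The last 30 bases of each are shown, with the bases after the shared stretch in capitals.
Acaca first probe: tgttgaaataaacctccacatttgtaGAAG
Acaca second probe: gttgaaataaacctccacatttgtaAAAAA
Dimmer probes of Acaca gave -0.76 ± 0.56 and -0.80 ± 0.80, the dimmest of them well above background on 2 of the 3 knockout arrays.

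**Figure D3:**
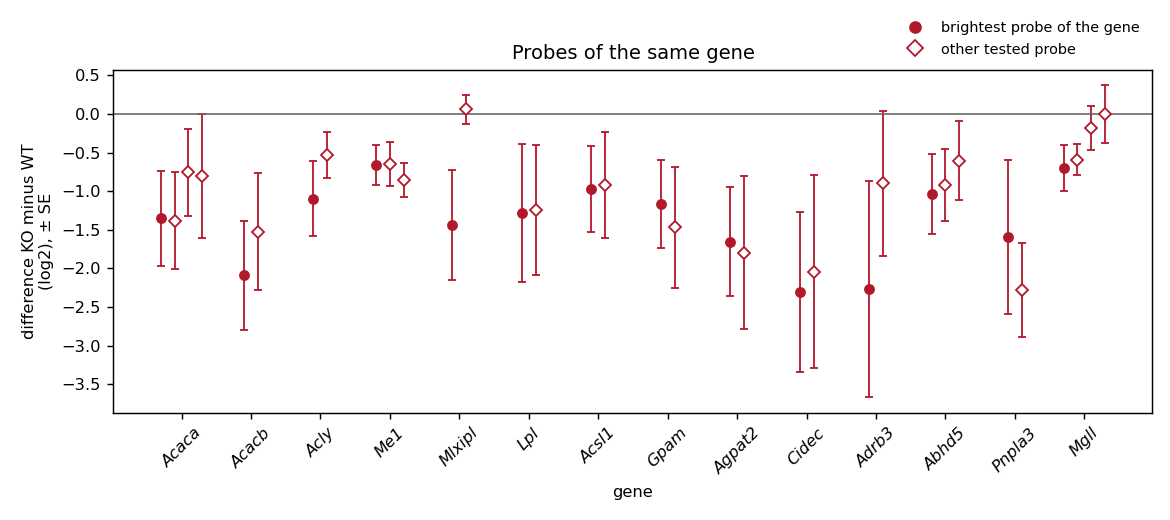
For the 14 genes with several tested probes, each point is the knockout minus wild-type difference (log2) of a probe with its SE, the filled circle being the brightest probe. The probes of a gene lie over 1 apart for Mlxipl (-1.44 and 0.06) and Adrb3 (-2.27 and -0.90), and the other genes span at most 0.70.

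Other genes of the same pathways, taken from 3 lists, gave a median difference of -0.30 over 67 genes. Of these 54 lay below 0, beside 46.8% of all tested probes. Single genes of these lists reached beyond the 35, as Elovl3 did at -3.37. None of the 67 passed the adjusted test (limma). At an unadjusted p under 0.05 there were 5 lower and 1 higher, beside 1636 lower and 1703 higher of all 38339 tested probes. Below all wild-type arrays lay 17 of the 67 on KO-1, 40 on KO-2 and 47 on KO-3. The shares of all tested probes were 28.1%, 32.8% and 28.9%, so the count on KO-1 was near its share. Among 26 further genes of fatty acid synthesis the median was -0.33, and the smallest p belonged to Elovl3, an elongase of brown fat (-3.37 ± 1.09), Aacs, the acetoacetyl-CoA synthetase (-1.67 ± 0.62), and Acss2, the acetyl-CoA synthetase (-1.32 ± 0.58). Among 21 further genes of triglyceride assembly and droplets the median was -0.36, with Acsl3 (-0.76 ± 0.25), Plin3 (-0.45 ± 0.16) and Plin5, a perilipin of oxidative tissues (-2.37 ± 1.08). Among 20 further genes of lipolysis and fatty acid transport the median was -0.24, with Adrb1, the beta-1 adrenergic receptor (-1.43 ± 0.36), Npr1, a natriuretic peptide receptor (0.45 ± 0.18), and Abhd6, a monoacylglycerol hydrolase (-0.40 ± 0.17).

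All 3 knockout arrays lay below all 3 wild-type arrays for 6 of the 67 other lipid genes, beside 6.14% of all tested probes. Adrb1 and Plin3, chosen after their values were seen, were among them. Adrb1 read -0.42, -1.54 and -1.90 on the knockout arrays, against 0.25, 0.19 and 0.00 on the wild-type arrays. Plin3 read 4.08, 3.84 and 3.96 on the knockout arrays, against 4.49, 4.27 and 4.46 on the wild-type arrays. In both the groups did not overlap. KO-1 lay near KO-2 and KO-3 for Plin3, while for Adrb1 it lay nearer to the wild-type arrays. Neither passed (adjusted p = 0.43 for Adrb1 and 0.52 for Plin3, limma).

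Markers of fat cells varied with the 35 genes from array to array. As the median deviation from each gene's mean over the 6 arrays, the 35 genes stood at 0.89, -1.28 and -1.82 on the knockout arrays and 1.0, 0.12 and 1.29 on the wild-type arrays. The 10 white adipocyte markers, none of them among the 35, stood at 0.86, -0.69 and -1.60 on the knockout arrays and 0.73, 0.06 and 0.63 on the wild-type arrays. The 10 brown adipocyte markers stood at 1.29, -1.23 and -2.43 on the knockout arrays and 1.05, 0.18 and 1.16 on the wild-type arrays. Not every marker followed its median, and 2 white and 1 brown markers had a difference above 0. Below all wild-type arrays lay 7 white markers on KO-2 and 8 on KO-3, and 9 brown markers on each. The shares of all tested probes were 32.8% on KO-2 and 28.9% on KO-3. In bulk tissue, fewer fat cells in the sample and less of these transcripts per fat cell cannot be told apart, and the part of fat content in the differences above was not tested.

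Among other cell types, thymocyte and endothelial markers also had their lowest medians on KO-2 and KO-3, the endothelial ones by little on KO-2. The part of either list in the result was not tested. The 8 smooth muscle markers stood at -0.25, 0.31 and 0.49 on the knockout arrays and -0.22, 0.05 and -0.27 on the wild-type arrays. The 8 macrophage markers, many of whose cells descend from the marrow, stood at 0.13, 0.68 and -0.11 on the knockout arrays and 0.15, -0.51 and -0.17 on the wild-type arrays, so that the 2 arrays low in fat genes did not share a macrophage level. The 8 endothelial markers were lowest on KO-3 at -0.56, with 0.13 and -0.13 on KO-1 and KO-2, and 0.18, 0.11 and 0.09 on the wild-type arrays. Of the 8 thymocyte markers, 5 were well above background on all 6 arrays. Their medians over all 8 were 0.23, -0.87 and -0.24 on the knockout arrays and 0.23, 0.27 and 0.31 on the wild-type arrays. Below all wild-type arrays lay 7 of the 8 on KO-2 and 6 on KO-3, counts that include markers not well above background on every array. For the endothelial markers those counts were 3 and 6. The shares of all tested probes were 32.8% on KO-2 and 28.9% on KO-3, so the endothelial count on KO-2 was near its share. The 8 cardiac muscle markers stood at 1.45, -1.05 and 0.82 on the knockout arrays and -0.70, 0.07 and -0.50 on the wild-type arrays. Hepatocyte markers, 5 of 8 well above background on all 6 arrays, stood at -0.55, -1.20 and 1.12 on the knockout arrays and 0.52, -0.05 and -0.21 on the wild-type arrays.

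**Figure D4:**
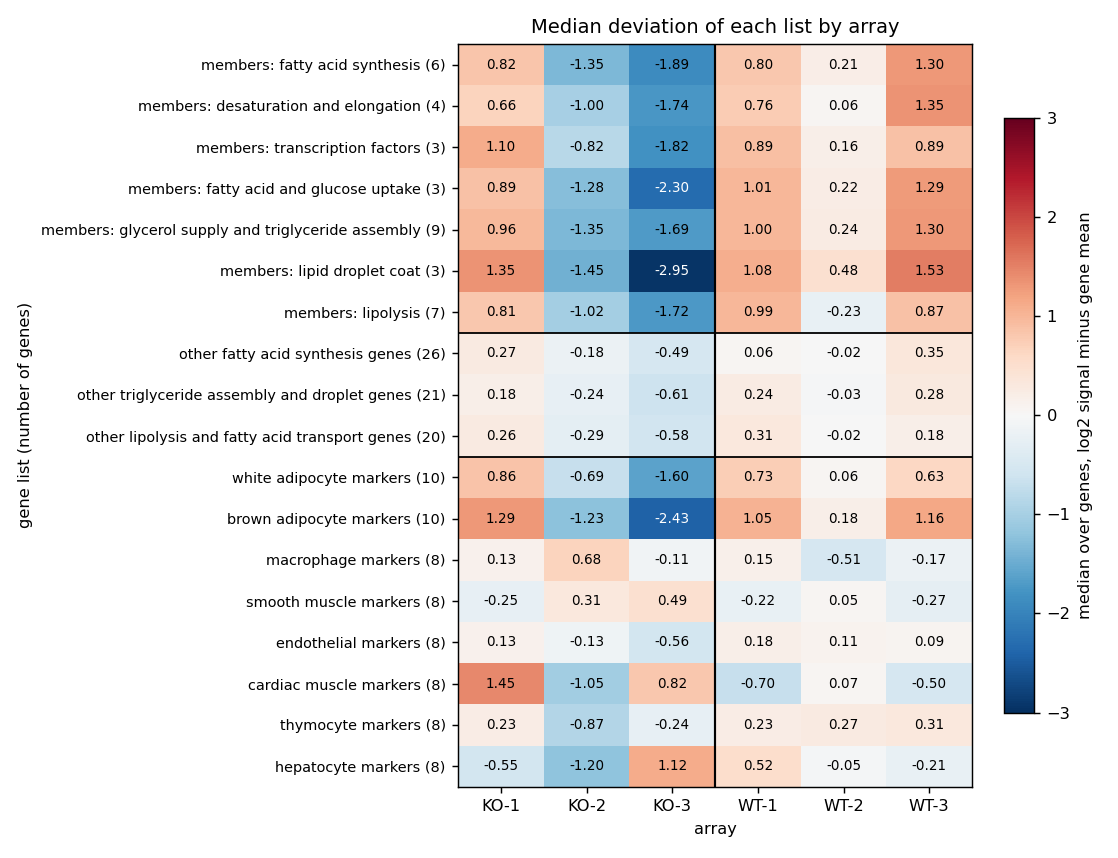
Rows are gene lists (the 7 role groups of the 35 genes on top, then other lipid genes, then cell type markers), columns the 6 arrays, and each cell the median over genes of log2 signal minus the gene's mean over the arrays. The role groups and both adipocyte marker lists are below 0 on KO-2 and KO-3 and above 0 on KO-1, WT-1 and WT-3. Thymocyte markers (-0.87 and -0.24) and endothelial markers (-0.13 and -0.56) are also below 0 on KO-2 and KO-3. Smooth muscle markers are above 0 on those arrays (0.31 and 0.49).

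Leaving out arrays moved the size of the difference, and its sign depended on KO-2 and KO-3. The median of the 35 genes was -2.51 without KO-1, -1.23 without KO-2 and -0.87 without KO-3, and from -1.75 to -1.26 when a wild-type array was left out. Without both KO-2 and KO-3 it was 0.17, with 11 of the 35 genes below 0, where KO-1 alone is assumed to vary like the other mice. White adipocyte markers went the same way, at -0.91 with all arrays, -1.57 without KO-1, -0.48 without KO-3 and 0.22 without KO-2 and KO-3. Their median, like that of the 35 genes, thus had the opposite sign on KO-1 alone. None of the 35 genes passed the adjusted test in any of these fits, the smallest adjusted p being 0.0577 for Acacb without KO-1 (limma).

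**Figure D5:**
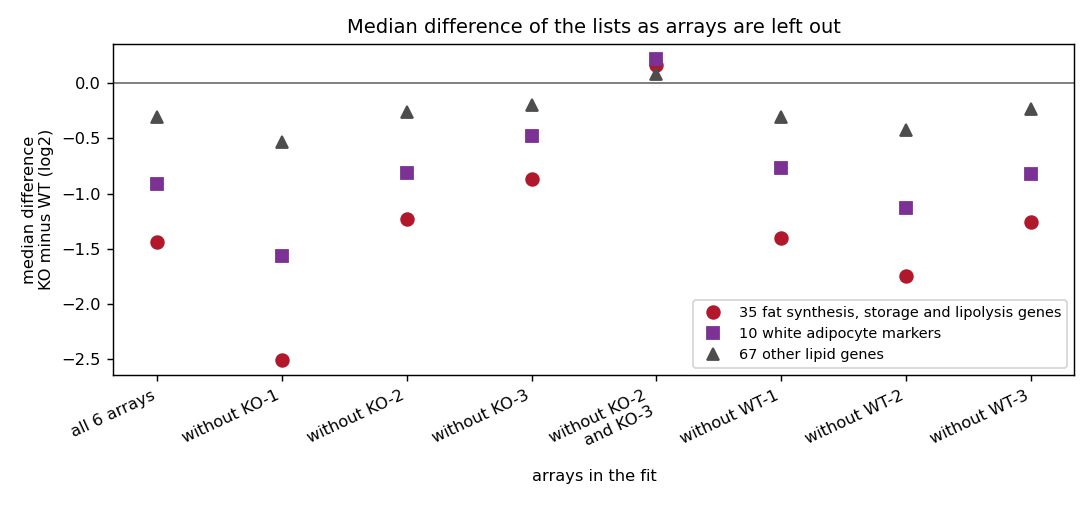
The horizontal axis gives which arrays were in the fit and the vertical axis the median knockout minus wild-type difference (log2) of 35 fat genes (circles), 10 white adipocyte markers (squares) and 67 other lipid genes (triangles). The 35 fat genes lie at -1.44 with all arrays, at -2.51 without KO-1 and at 0.17 without KO-2 and KO-3.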

How the data were processed

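RNA of 6 aortic arches (100 ng each) was labelled with Cy3. The deposited scanner files hold 1-colour intensity values from Agilent Feature Extraction 10.7.3.1 on mm9 coordinates. Per the file headers, the authors' software corrected each spot for background and spatial trend and set a surrogate for low values, with no normalization between arrays. The deposited series table holds the same intensity values rounded, within 0.5%.

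Log2 processed signals were centred on each array's 75th percentile over 59305 non-control spots. Outlier spots were left out and replicate spots averaged. Testing was limited to probes read well above background by a whole group of 3 arrays, 38339 after 10 were set aside for outlier spots, with limma 3.58.1 in R 4.3.3 (two-sided, Benjamini-Hochberg, threshold 0.05). Precision is limited by 3 arrays per group.

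The genes and lists were chosen with earlier results of these data known. All 35 genes are named. Array values are given for the 2 largest differences and the smallest p of each role, for probes whose groups do not overlap or disagree in sign, and, chosen after their values were seen, for Scd2, Lpl and Plin4, Adrb1 and Plin3. Of each list of other lipid genes, the 3 with the smallest p are named. The fit without KO-2 and KO-3 was chosen after seeing the data. Other alternatives covered background correction, normalization, filter, series table, block, variance model, array weights, probe choice and single arrays.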

Additional observations from a re-analysis of the deposited data

How the results depend on the processing

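Every one of the 35 genes kept a difference below 0 under normexp, quantile normalization, median centring, no filter on dim probes, the deposited series table, a trended robust variance, array weights and the replicate block, and none passed the adjusted test. With probes well above background on all 6 arrays Mogat1 left the set, and the other 34 stayed below 0. The median of the 35 genes ran from -2.51 to -0.87 when single arrays were left out and was -2.12 with array weights and -1.37 with normexp. The lowest array weight was that of KO-1, at 0.345, against 1.30 for KO-2 and 0.75 for KO-3. The weighted fit thus leaned less on KO-1 and is not a separate check of the difference. By gene, normexp gave -0.69 for Gpam, -0.78 for Mogat1, -1.05 for Pnpla3 and -1.04 for Lipe. Array weights gave -0.58 for Scd2, -2.19 for Cebpa, -1.49 for Acsl1, -1.53 for Dgat1, -2.57 for Pnpla3, -2.43 for Lipe and -1.02 for Aqp7. Over the same single omissions, the white adipocyte median ran from -1.57 to -0.48 and the median of the other lipid genes from -0.54 to -0.20. For Scd2 the omissions of single arrays gave from -0.59 to 0.0374, with the highest value without WT-3. Without KO-2 and KO-3 the medians were 0.17 for the 35 genes, 0.22 for white adipocyte markers and 0.0821 for the other lipid genes. There Cebpa read 1.25, Adrb3 1.06, Pck1 1.06, Lipe 0.80, Pnpla3 0.76, Dgat2 0.74, Plin1 0.58, Dgat1 0.56, Thrsp 0.52, Aqp7 0.52, Lpl 0.38, Mlxipl 0.38, Acsl1 0.36, Scd1 0.27, Acaca 0.20, Cidec 0.20, Gpam 0.17, Gpd1 0.17, Agpat2 0.14, Elovl5 0.0767, Srebf1 0.0422, Scd2 0.0285, Abhd5 0.0293 and Pnpla2 0.00348. That fit keeps 1 knockout array, so its values are those of KO-1. Over all probes 1 passed as reported, 4 with normexp, 2 with median centring, trended robust variance, array weights or without KO-2 and KO-3, 0 with the filter on all 6 arrays, and from 1 to 2 when single arrays were left out. At 0, 1 or 4 probes these counts say little, and the cause was not tested. With the replicate block 1 probe and 0 of the 35 genes passed. Same-numbered mice did not pair, with correlations of deviations of 0.12, 0.05 and -0.28, and no knockout array correlated best with its own number. The 3 mice per group limit what can be called.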
